A study of Mus musculus with 2 samples.

Results

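The aryl hydrocarbon receptor (AHR) and its classic target genes were examined in messenger RNA of whole mouse kidneys with acute kidney injury (AKI). The set was fixed by gene symbol and held 8 genes: the receptor *Ahr*, its repressor *Ahrr*, its partner *Arnt*, and the target genes *Cyp1a1*, *Cyp1a2*, *Cyp1b1*, *Tiparp* and *Nqo1*. Of these, 6 had a row among the 19829 genes of the deposited table, and *Ahrr* and *Cyp1a2* were not analysed here. Every gene with a row had at least 1 read in both libraries. A gene without reads in even 1 library thus had no row, and the counts here leave out changes of that kind. Genes were counted when their normalized value reached 1 in either library, which 5 of the 6 did, and *Cyp1a1* stayed below it in both libraries.

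AHR is a ligand-activated transcription factor of the basic helix-loop-helix PAS (bHLH-PAS) family. Without a ligand it waits in the cytosol in a complex with HSP90 and other chaperones, and after binding a ligand it enters the nucleus, pairs with ARNT and binds xenobiotic response elements near its target genes. Environmental aromatic compounds activate it, as do tryptophan-derived indoles, among them indole-3-acetic acid (IAA), which the study takes the enzyme INMT to detoxify. Induction of CYP1 enzymes is its classic readout, and AHRR and TIPARP are targets that feed back on the receptor.

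The library WT+AKI came from wild-type mice, and the library TG+AKI from mice that carry an *Inmt* transgene expressed in proximal tubules. The methods give male C57BL/6 mice (C57BL/6J as purchased) with littermate controls, and the sources used here neither name the promoter that drives the transgene nor say whether each library came from 1 animal. Both groups had the calcineurin inhibitor voclosporin intraperitoneally (30 mg/kg/day over 2 weeks, between the ages of 8 and 10 weeks) and, at the age of 14 weeks, bilateral renal ischemia of 30 min with reperfusion (I/R). Whole kidney was sequenced, and the interval after I/R is given as 24 h in one place and as 48 h in another. The labels are not uniform: the treatment field names no treatment for either sample, and the title of the TG+AKI sample adds the words conditional knockout. The study used this pair of groups to look for changes across the genome beyond *Inmt*, and the genes of the receptor that IAA can bind are described here.

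Read totals were 38542764 (WT+AKI) and 36427421 (TG+AKI), and 1 read was worth a normalized value of 0.0236 and 0.0302, respectively. Each group is a single library, so replicate spread is unknown for every difference given here. Brackets give 95% intervals from the reads alone (exact Poisson for a level, Clopper-Pearson for a ratio), which cover counting error in these libraries and no variation between animals. *Inmt*, the gene overexpressed in the transgenic mice, stood at 403 in the library labelled transgenic and at 10.4 in the wild-type one. The ratio was 38.5 [35.1 to 42.5], and reads of the transgene and of the endogenous gene were not told apart. Kidney tissue was evident in both libraries from *Umod* (1427 and 1921) and *Slc34a1* (764 and 5397), the defining transcripts of the thick ascending limb and the proximal tubule.

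No member rose. *Cyp1b1* and *Nqo1* were at least 2-fold lower in TG+AKI than in WT+AKI, *Ahr* itself stood just short of that size, *Tiparp* was slightly lower, and *Arnt* and *Cyp1a1* did not differ beyond counting error. By the size rule (a ratio of at least 2 or at most 0.5), 2 of the 5 members past the filter were lower and 0 higher. Over all 14997 genes past the filter, 11.0% were at least 2-fold lower and 7.35% at least 2-fold higher. The median log2 ratio of the 5 members was -0.99, against -0.0175 over all genes. The interval of the ratio lay below 1 for 4 of the 5, which tells little at this depth, since it lay below 1 for 38.7% of all genes past the filter and above 1 for 36.3%.

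**Figure D1:**
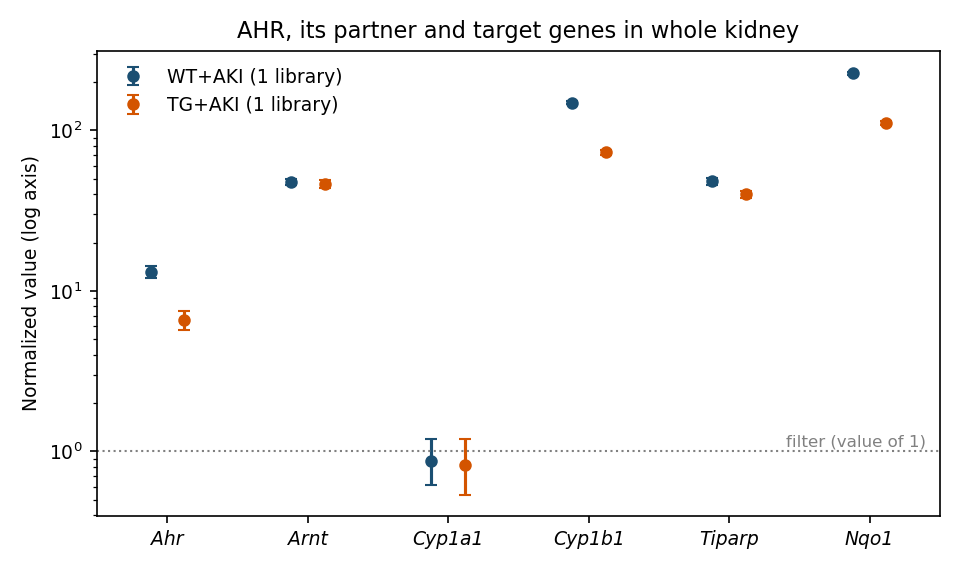
Normalized value (log axis) of the 6 listed members in the WT+AKI and TG+AKI libraries, 1 library each; bars are exact 95% Poisson intervals on the reads. *Nqo1* and *Cyp1b1* were the highest in both libraries and lower in TG+AKI, and *Cyp1a1* stayed below the dotted filter line in both.

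The receptor and its partner behaved differently. *Ahr* (gene ID 11622, chromosome 12, 35497974 to 35535038, minus strand, GRCm38) stood at 13.1 [12.0 to 14.2] in the wild-type library (555 reads) and at 6.58 [5.74 to 7.52] in the transgenic one (218 reads). The ratio was 0.503 [0.428 to 0.589], a log2 ratio of -0.99, which placed *Ahr* at percentile 11.1 of all genes past the filter, immediately outside the 2-fold rule. An annotated gene on the other strand, *Gm48236*, overlaps its exons, and the strand setting of the counting was not stated. *Arnt* (gene ID 11863, chromosome 3, 95434388 to 95497240, plus strand), which also serves the hypoxia-inducible factors as a partner, had values of 47.9 [45.8 to 50] and 46.4 [44.1 to 48.8]. Its ratio of 0.969 [0.906 to 1.04] held 1, and its interval did not overlap that of *Ahr*.

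Among the targets, *Cyp1a1* (gene ID 13076, chromosome 9, 57687928 to 57703824, plus strand), the P450 enzyme taken as the most sensitive sign of AHR activation, was low in both libraries. Its 37 wild-type and 27 transgenic reads gave normalized values of 0.873 [0.614 to 1.20] and 0.815 [0.537 to 1.19]. The ratio was 0.934 with a wide interval of 0.547 to 1.58, so a difference within these bounds was not detectable at this depth. Its interval lay wholly above those of *Cyp1b1* and *Nqo1*, and overlapped that of *Ahr*. Of the 100-base words of its longest transcript, 1.46% also occur in *Cyp1a2*.

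*Cyp1b1* (gene ID 13078, chromosome 17, 79701537 to 79715061, minus strand) encodes the P450 enzyme of the same family that hydroxylates steroids and aromatic hydrocarbons outside the liver. It was the more abundant CYP1 gene in both libraries, at 149 [146 to 153] in the wild-type library (6334 reads) and 73.0 [70.1 to 75.9] in the transgenic one (2416 reads). The level was 2.05-fold lower in TG+AKI [1.95 to 2.15], a log2 ratio of -1.03 at percentile 10.4. The interval holds ratios on both sides of the 2-fold limit, so the size of the difference is better described than its place relative to that limit.

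*Nqo1* (gene ID 18104, chromosome 8, 107388225 to 107403206, minus strand) encodes a quinone reductase that is a target of AHR and also of NRF2, the factor of the antioxidant response. Its values were 227 [223 to 232] from 9641 reads and 111 [108 to 115] from 3681 reads. It too was 2.05-fold lower in TG+AKI [1.97 to 2.13], at percentile 10.5. The ratios of *Ahr*, *Cyp1b1* and *Nqo1* (0.503, 0.488 and 0.489) had overlapping intervals and were not distinguished from each other by counting.

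*Tiparp* (gene ID 99929, chromosome 3, 65528410 to 65555518, plus strand) encodes the ADP-ribosyltransferase PARP7, which is induced by AHR and restrains it. Its values were 48.1 [46.0 to 50.2] and 39.9 [37.8 to 42.1], and its ratio of 0.830 [0.774 to 0.890] stood at percentile 33.2, inside the middle of the distribution. Its interval did not overlap those of *Cyp1b1* and *Nqo1*, so these targets did not share 1 ratio. The antisense gene *4931440P22Rik* overlaps its exons, with the same limit on strand as for *Ahr*.

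**Figure D2:**
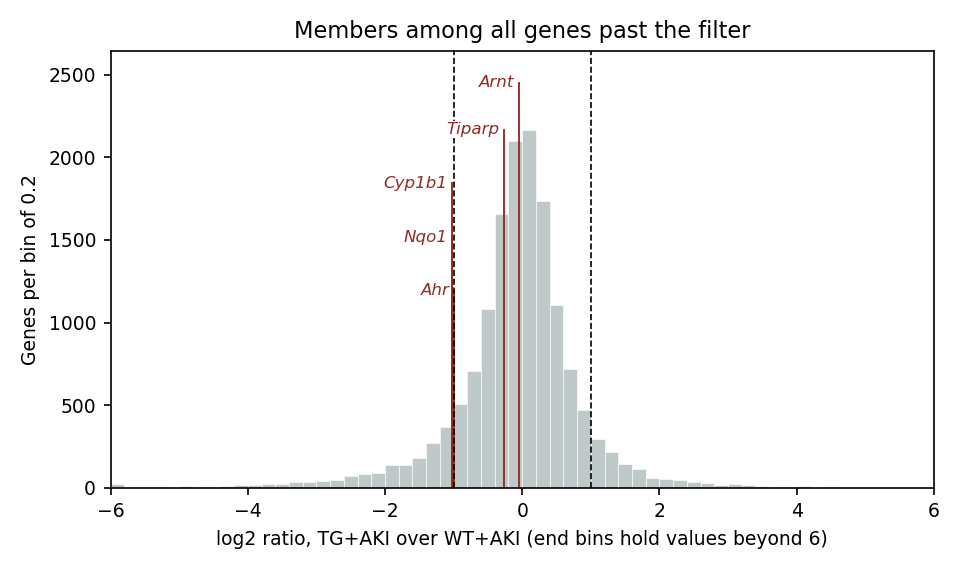
Number of genes (bins of 0.2) by log2 ratio of TG+AKI over WT+AKI for the 14997 genes past the filter, with the 5 members past it marked in red and the 2-fold limits dashed. *Cyp1b1*, *Nqo1* and *Ahr* lie together at the lower limit (-1.03, -1.03 and -0.99), *Tiparp* at -0.27 and *Arnt* at -0.05; *Cyp1a1* was below the filter.

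The promoters of the 4 listed targets are shown as a description of the sequence next to their starts. Whether AHR acts through any core in these windows was not tested, and elements farther from the start lie outside them. RefSeq windows on GRCm38.p6 were found for 7 of the 8 members. They run from 250 bases before to 50 bases after the RefSeq start of the gene and are written along its strand. The gene positions given above are from another annotation, GENCODE, whose starts can differ. The window of *Cyp1a1* lies inside the interval given above for that gene, and distances below are from the RefSeq start. Capitals mark GCGTG, the core of the xenobiotic response element, or CACGC, the same core on the other strand.
Cyp1a1 (chr9:57697363-57697662, plus strand): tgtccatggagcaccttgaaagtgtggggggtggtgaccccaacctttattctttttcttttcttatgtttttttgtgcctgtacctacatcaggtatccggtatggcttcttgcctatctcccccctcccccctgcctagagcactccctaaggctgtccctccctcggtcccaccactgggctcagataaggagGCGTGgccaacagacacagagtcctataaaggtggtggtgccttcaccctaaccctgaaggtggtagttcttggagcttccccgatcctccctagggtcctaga
Cyp1b1 (chr17:79715012-79715311, minus strand): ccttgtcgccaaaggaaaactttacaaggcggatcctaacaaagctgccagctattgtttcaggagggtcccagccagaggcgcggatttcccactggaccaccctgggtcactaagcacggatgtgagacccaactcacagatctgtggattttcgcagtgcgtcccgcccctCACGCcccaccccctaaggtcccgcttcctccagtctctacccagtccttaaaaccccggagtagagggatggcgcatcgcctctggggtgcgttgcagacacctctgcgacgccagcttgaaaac
Tiparp (chr3:65528197-65528496, plus strand): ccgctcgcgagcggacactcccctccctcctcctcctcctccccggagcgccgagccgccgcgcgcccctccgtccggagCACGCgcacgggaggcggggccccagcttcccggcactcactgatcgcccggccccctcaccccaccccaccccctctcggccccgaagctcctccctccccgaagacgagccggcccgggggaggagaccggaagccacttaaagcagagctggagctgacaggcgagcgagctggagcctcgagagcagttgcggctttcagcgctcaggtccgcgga
Nqo1 (chr8:107403156-107403455, minus strand): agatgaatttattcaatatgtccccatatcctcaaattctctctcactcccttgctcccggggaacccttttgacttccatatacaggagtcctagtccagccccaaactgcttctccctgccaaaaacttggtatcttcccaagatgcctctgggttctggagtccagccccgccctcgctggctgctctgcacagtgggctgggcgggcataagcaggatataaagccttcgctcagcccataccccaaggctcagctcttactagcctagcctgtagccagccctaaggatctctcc

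The core occurred once in the windows of *Cyp1a1* (52 bases upstream of the start), *Cyp1b1* (74 bases upstream, on the other strand) and *Tiparp* (168 bases upstream, on the other strand), and it did not occur in that of *Nqo1*. Of the unlisted members, *Ahrr* had 3 matches and *Cyp1a2* 0, and *Arnt* had 1, so that 5 of 7 member windows held the core. It is a short and common word, present in 32.4% of all 32851 windows and in 45.0% of the 17450 windows of genes in the table. ACGTG, the core of the hypoxia response element, which differs from GCGTG in its opening letter, was found in 0 member windows against 19.6% of all windows. TGACNNNGC, the core of the antioxidant response element, was found in 1 member window (*Arnt*) against 12.4% of all. A match in these letters is a description of the window and not evidence of binding. The lack of a match in so short a window does not show that a gene has no such element.

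Levels of different genes were compared per kilobase of the longest annotated transcript. In WT+AKI the order was *Nqo1* (146 normalized units per kb), *Cyp1b1* (29.1), *Tiparp* (11.5 [11.0 to 12.0]), *Arnt* (11.1 [10.6 to 11.6]), *Ahr* (2.36) and *Cyp1a1* (0.324). *Tiparp* and *Arnt* were not separated by counting error there. In TG+AKI *Nqo1* (71.6 per kb) and *Cyp1b1* (14.2) again came first, *Arnt* (10.7 [10.2 to 11.3]) stood narrowly above *Tiparp* (9.52 [9.01 to 10]), and *Ahr* (1.19) and *Cyp1a1* (0.302) came last. Per kilobase *Ahr* was thus lower than *Arnt* in both libraries, and as raw reads there were 0.274 *Ahr* reads per *Arnt* read in the wild-type library and 0.142 in the transgenic one.

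The ratios also depend on how the libraries are scaled, since the deposited scaling makes the column sums unequal. With equal column totals every log2 ratio fell by 0.275, and with the median ratio of well-expressed genes (100 or more in both, 1446 genes) set to 1 it fell by 0.144. Of the genes past 2-fold, 40.1% were higher as deposited, 23.4% with equal totals and 30.8% with that median. Under each of these, 3 members instead of 2 were at least 2-fold lower, *Ahr* being the addition, with ratios of 0.416 and 0.455. The share of all genes at least 2-fold lower rose as well, from 11.0% to 15.8% with equal totals and 13.2% with that median. Relative to *Arnt* in the same library, a measure that needs no scaling and was chosen after the data were seen, the ratio of *Ahr* was 0.519 [0.436 to 0.617], that of *Cyp1b1* 0.504 [0.464 to 0.547], that of *Nqo1* 0.504 [0.467 to 0.545], and that of *Tiparp* 0.856 [0.777 to 0.943]. By this measure none of them passed the 2-fold rule. *Ahr*, *Cyp1b1* and *Nqo1* were lower than in WT+AKI under every scaling tried.

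**Figure D3:**
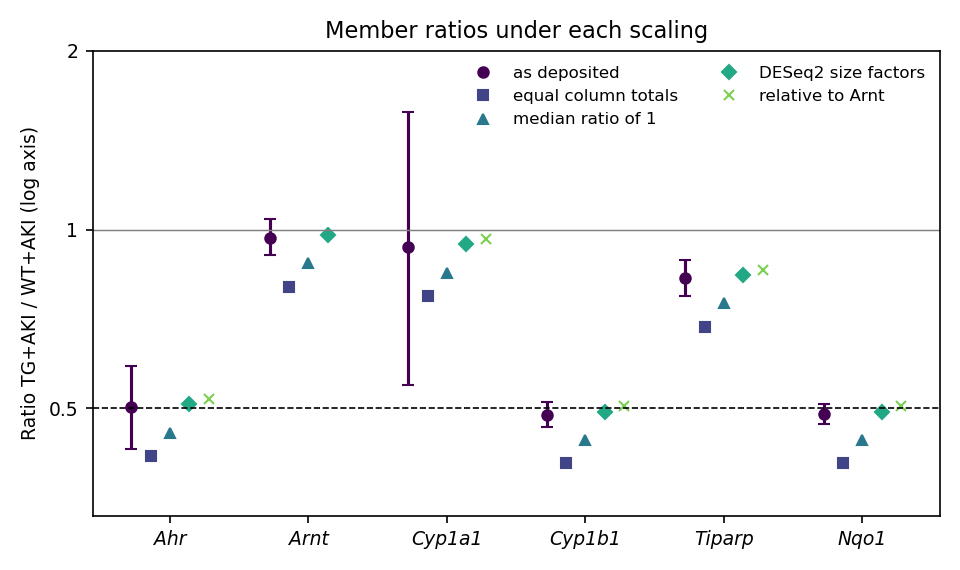
Ratio of TG+AKI over WT+AKI (log axis) of each listed member as deposited, with its 95% interval from reads, and under 4 other scalings (points only). *Ahr*, *Cyp1b1* and *Nqo1* stay between 0.404 and 0.519 near the dashed 2-fold limit, while *Arnt*, *Cyp1a1* and *Tiparp* stay between it and 1.

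In the cytosolic complex that holds the receptor, 0 of 4 genes passed the 2-fold limits as deposited, and 1 was at least 2-fold lower with equal column totals. *Hsp90aa1*, the stress-inducible HSP90, had values of 616 and 369 (ratio 0.60 [0.587 to 0.613]), and *Hsp90ab1*, the constitutive form, 707 and 877 (ratio 1.24). For *Hsp90aa1*, 47.5% of the 100-base words also occur in annotated gene copies, so its level is uncertain. Among coregulators, 1 of 10 was lower and 0 higher, a share near the 11.0% of all genes. That gene was *Relb*, an NF-κB subunit known to bind AHR, at 17.7 and 2.99 (ratio 0.169 [0.135 to 0.208]). The coactivator gene *Ncoa2* had a ratio of 1.36 and *Nrip1* one of 0.777.

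The other bHLH-PAS genes were mixed, with 2 of 10 higher and 1 lower (7.35% and 11.0% of all genes). The list median log2 ratio was -0.03. The genes past the limit belong to the circadian branch of the family: *Npas2* (3.84 and 9.09, ratio 2.36 [1.95 to 2.88]) and *Arntl*, which encodes BMAL1 (10.4 and 21.1, ratio 2.03 [1.80 to 2.29]), were higher, and *Arntl2* (3.42 and 1.51, ratio 0.441 [0.313 to 0.613]) was lower. With equal column totals 0 genes of this list were higher, 1 was higher with the median ratio set to 1, a pseudocount of 1 or a filter of 10, and 0 were lower with that pseudocount or that filter. The time of day of sampling was not given for either group.

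Further genes known to be induced through AHR moved in both directions. Of 12 metabolic targets past the filter, 5 were at least 2-fold lower and 2 higher, with a median log2 ratio of -0.44. Over all genes the shares were 11.0% and 7.35%. *Scin*, an actin-severing protein, had values of 112 and 31.4 (ratio 0.282 [0.263 to 0.301]), and *Gsta1*, a glutathione transferase, 77.7 and 20.9 (ratio 0.269), although 81.8% of its words occur in other genes such as *Gsta2*. *Cyp2a5*, a P450 enzyme that oxidizes coumarin, was higher at 29.9 and 101 (ratio 3.39 [3.18 to 3.62]). Of its words, 14.4% occur in other genes such as *Cyp2a4*. The higher genes of this list numbered 1 with equal column totals, with the median ratio set to 1, with either pseudocount and with a filter of 10. Of 6 growth and immune targets past the filter, 4 were lower and 0 higher (2 lower with a filter of 10), and the other 6 of that list had no row. *Ptgs2*, the inducible cyclooxygenase, stood at 7.03 and 0.634 (ratio 0.0902), and *Myc* at 36.0 and 4.86 (ratio 0.135). These genes also answer to many other signals.

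Genes of the response driven by NRF2, which shares *Nqo1* with AHR, were counted as a list of their own. *Nfe2l2*, which encodes NRF2 and is itself an AHR target, had a ratio of 0.464 [0.445 to 0.483]. It was counted among the lower metabolic targets of AHR and not in this list, and it is named here after its value was seen. Of 13 NRF2-related genes without *Nqo1*, 7 were at least 2-fold lower and 0 higher, against 11.0% and 7.35% of all genes. The median log2 ratio of the list was -1.03, equal to that of *Nqo1*. *Srxn1*, which repairs peroxiredoxins, had values of 409 and 77.5 (ratio 0.189 [0.182 to 0.197]), and *Hmox1*, heme oxygenase, 169.7 and 43.3 (ratio 0.255 [0.241 to 0.270]). *Slc7a11*, the cystine importer, had values of 4.06 and 0.181, the latter from 6 reads (ratio 0.0447 [0.0162 to 0.0992]). The part of each factor in the level of *Nqo1* was not tested.

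**Figure D4:**
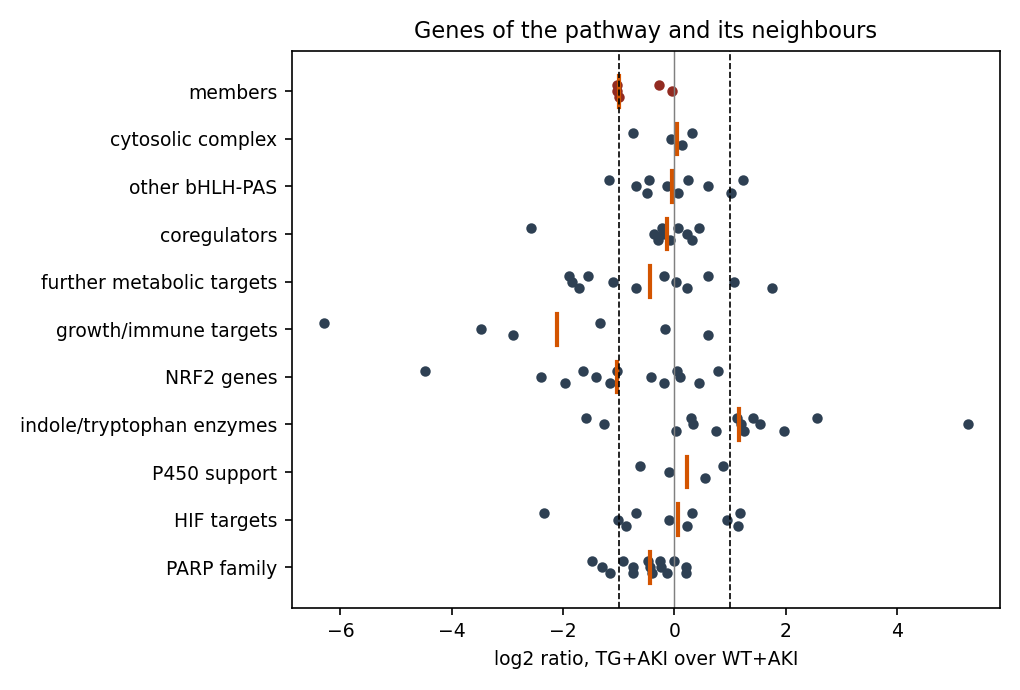
Log2 ratio of TG+AKI over WT+AKI for each gene past the filter (points) in the AHR set and in 10 lists of related genes, with the list median as an orange bar and the 2-fold limits dashed. The medians were -0.99 for the members, -1.03 for NRF2 genes, -2.11 for growth and immune targets and 1.16 for indole and tryptophan enzymes.

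Among enzymes that make or remove tryptophan-derived indoles and kynurenines, more genes were higher than lower. Of 14 listed genes, 8 were at least 2-fold higher in TG+AKI, including *Inmt*, the gene overexpressed in the transgenic mice, and 2 were lower. Over all genes the shares were 7.35% and 11.0%. The median log2 ratio of the list was 1.16, against -0.0175 over all genes. *Kynu*, kynureninase, had values of 4.91 and 28.8 (ratio 5.88 [5.05 to 6.86]), and *Aadat*, an aminotransferase of kynurenine, 66.4 and 262 (ratio 3.94 [3.78 to 4.12]). The genes that were lower, *Maoa* (ratio 0.416) and *Maob* (0.334), encode monoamine oxidases and are named after their values were seen. Over all 10 lists, 14 of 98 genes past the filter were higher (14.3%) and 25 lower (25.5%) as deposited, against 7.35% and 11.0% of all genes. With equal column totals the higher genes numbered 6, of which 5 were in this list, and 4.84% of all genes were higher.

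Transcripts that mark cell types differed between the libraries as well. The 7 proximal tubule markers summed to 2767 and 12087, all 7 at least 2-fold higher, against 7.35% of all genes (11.0% were lower). The 6 markers of injured tubule summed to 2770 and 132, all 6 lower, with *Havcr1* at 1169 and 2.78 and *Clu* at 885 and 114. Markers of mural cells and fibroblasts summed to 551 and 275, with 3 of 7 at least 2-fold lower. Their ratios were unequal and ran from 0.232 (*Col1a1*) through 0.259 (*Col3a1*), 0.458 (*Dcn*), 0.536 (*Pdgfrb*) and 0.603 (*Pdgfra*) to 0.986 (*Acta2*) and 1.27 (*Myh11*), the whole list being given after its values were seen. Macrophage markers summed to 166 and 71.6, with 5 of 7 lower, of which *Cd68* was lowest in ratio (0.0375), whereas *Csf1r* had a ratio of 1.15. Endothelial markers summed to 450 and 443 with 0 of 7 past the limit. Their ratios were also unequal, 4 above 1 and 3 below, from 0.709 (*Flt1*) to 1.65 (*Kdr*). In whole kidney, fewer cells of a type and less RNA per cell cannot be told apart, and the part of these differences in the levels of *Ahr*, *Cyp1b1* and *Nqo1* was not tested.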

How the data were processed

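Whole-kidney RNA libraries (TruSeq Stranded mRNA) of 1 WT+AKI and 1 TG+AKI sample were compared. The submitters' processing notes name STAR 2.7.3a, HTSeq, DESeq2, edgeR and the build mm10; annotation and strand setting are not given in the sources used here. The deposited values are a normalized signal, made by the authors from read counts divided by a library factor. All values of each column (100%) were whole multiples of its smallest value (relative tolerance 0.001), so reads were recovered by division. The scaling equals TMM factors (1.10 and 0.909) of edgeR 4.0.16 on those reads.

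Genes that reached a value of 1 in either library were counted by a ratio of at least 2 or at most 0.5, with no pseudocount. An exact binomial test on reads with Benjamini-Hochberg adjustment (threshold 0.05) compares these libraries, not conditions, and called 11011 of the 14997 genes; all 2748 genes past 2-fold were among them. Procedures were tested on simulated data. Members and lists were chosen with earlier results of these data known. Genes named are all members, *Inmt*, the 3 largest absolute log2 ratios of each pathway list and the 2 highest summed values of each marker list; exceptions are marked, and some genes that the rule names are not reported here. Gene positions, transcript lengths and shared 100-base words are from GENCODE M21 (GRCm38), and promoters from RefSeq (GRCm38.p6). Alternatives were other scalings (DESeq2 1.42.0 size factors among them), pseudocounts of 1 and 0.1, no filter and a filter of 10. Python 3.11.15, numpy 2.4.6, scipy 1.17.1 and pandas 2.3.3 were used.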

Additional observations from a re-analysis of the deposited data

How the results depend on the processing

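Every member ratio stayed below 1 under the other scalings and either pseudocount, which was largely fixed in advance. A pseudocount cannot carry a ratio across 1, and the TMM factors equal the deposited scaling. Equal column totals and the median ratio of 1 only lowered the ratios, and the DESeq2 factor on TG+AKI was 1.0114. With equal column totals the ratios were 0.416 (*Ahr*), 0.801 (*Arnt*), 0.404 (*Cyp1b1*), 0.686 (*Tiparp*) and 0.404 (*Nqo1*), the median log2 ratio of the members was -1.27, 726 genes were at least 2-fold higher and 2372 lower (23.4% of changed genes higher, against 40.1% as deposited), and the related lists held 6 higher genes. With a median ratio of 1 over well-expressed genes the ratios were 0.877 (*Arnt*), 0.442 (*Cyp1b1*), 0.751 (*Tiparp*) and 0.442 (*Nqo1*), the median of the members was -1.14, and 30.8% of changed genes were higher. These values follow from 1 factor applied to all genes. Without a filter, 1821 genes were higher and 2489 lower of 19829, and the median of the members was -0.63, because *Cyp1a1* enters. With a filter of 10, which compares 10294 genes, 629 were higher and 790 lower. The number of members at least 2-fold lower was 2 or 3 under every alternative except reads relative to *Arnt*, chosen after the data were seen, under which *Ahr* (0.519), *Cyp1b1* (0.504) and *Nqo1* (0.504) all missed the limit. Scaling by TMM moved nothing, because it is the deposited scaling, and the exact binomial test removed no call. No paired analysis was possible because each group has 1 library. Depth limits *Cyp1a1*, with 37 and 27 reads.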

Other observations

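Of 15 relatives of *Tiparp* in the PARP family, 3 were at least 2-fold lower and 0 higher, against 11.0% and 7.35% of all genes. With equal column totals 6 were lower, against 15.8% of all genes. As deposited, the ratio was below 1 for 13 of the 15, and the median log2 ratio was -0.43, against -0.0175 over all genes. The genes past the limit, all known as interferon-induced, were *Parp14* (41.5 and 15.0, ratio 0.362 [0.327 to 0.400]), *Zc3hav1* (41.2 and 16.7, ratio 0.406 [0.368 to 0.447]) and *Parp10* (54.4 and 24.4, ratio 0.449 [0.414 to 0.487]). *Parp10* and *Parp14* overlap other annotated genes on the same strand. Genes of the hypoxia response, whose factors also pair with ARNT, had 2 of 10 higher, 2 lower and a median log2 ratio of 0.06. These counts depend on the scaling: 0 genes passed the upper limit and 3 the lower one when column totals were made equal, and with DESeq2 size factors, either pseudocount or a filter of 10, 1 was lower. *Ndrg1* (1491 and 3377, ratio 2.26) and *Vegfa* (129 and 286, ratio 2.22) were higher as deposited but not with equal column totals, and *Adm*, adrenomedullin, was lower (22.9 and 4.53, ratio 0.198 [0.166 to 0.236]). Of 4 genes that supply P450 enzymes with electrons or heme, 0 passed the limit (*Cyb5a* ratio 1.83, *Cyb5r3* 0.657, *Alas1* 1.46).

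Summed marker values were 1895 and 3113 for the thick ascending limb, 194 and 687 for the distal convoluted tubule, 293 and 405 for the collecting duct, and 343 and 397 for podocytes, in WT+AKI and TG+AKI. Lymphocyte markers had values of at most 0.590 in either library. Red cell markers summed to 2.69 and 5.47. Genes used as liver markers summed to 224 and 1556, with 3 of the 5 past the filter at least 2-fold higher and 0 lower. Among them, *Cyp2e1*, which tubule cells also express, had values of 129.9 and 1422, and *Alb* 0.802 and 8.27 (named after its value was seen). *Serpina1a* went the other way, at 68.8 and 47.8 (ratio 0.696), although 49.9% of its words occur in other genes such as *Serpina1b*.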
